A study of Mus musculus with 163 samples.

Results

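The 9 transcripts described here, Inhba, Inhbb, Fst, Amh, Amhr2, Fshr, Nr5a2, Kitl and Gja1, are named in the ovary as products of granulosa cells, the somatic cells that surround the oocyte in the follicle, and they were measured in libraries of single mouse oocytes. They were chosen by symbol, through the Entrez gene identifiers of the count table, and make up 9 of its 21950 genes. All 9 had a row and none was dropped. The oocytes fall into 7 groups of growing oocytes (GROs) and fully grown oocytes (FGOs). The iPSC-derived GROs (23 oocytes) and FGOs (24 oocytes) came from BVSC-iPSC, a single female line with a Blimp1-Venus and a Stella-ECFP reporter, whose germ cells were aggregated with somatic cells of embryonic gonads of outbred mice into reconstituted ovaries. Gonad-derived GROs and FGOs (24 oocytes each) came from dissociated E12.5 embryonic gonads aggregated and cultured in the same way, so the follicles of both sources were built from embryonic somatic cells. Follicles isolated at 6 days post partum (6 dpp) and grown in culture gave the 6 dpp FGOs (24 oocytes). In vivo GROs (24 oocytes) and in vivo FGOs (20 oocytes) were taken from ovaries, and the labels give neither age nor strain for them. Aggregation took place with retinoic acid in both cultured sources. Culture of the reconstituted ovaries included fulvestrant, an estrogen receptor antagonist, for part of the time in the iPSC-derived source, and a similar protocol was used for the gonad-derived source. Growth of all FGOs other than the in vivo ones took place with follicle-stimulating hormone (FSH) in the medium, with BMP15 and GDF9 added at first and a collagenase step. Somatic cells were stripped from every oocyte with needles, an enzyme and pipetting, and the zona pellucida was dissolved, before lysis.

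A follicle grows through signals that pass both ways between the oocyte and its granulosa cells. Granulosa cells make activins and inhibins, dimers that contain a beta subunit encoded by Inhba or Inhbb, and follistatin (Fst), which binds activin and blocks it. They also make anti-Müllerian hormone (Amh), which acts through its type II receptor (Amhr2), and they carry the FSH receptor (Fshr). Kitl encodes KIT ligand, which acts on the KIT receptor of the oocyte, and Gja1 encodes connexin 43, the gap junction protein that couples granulosa cells to each other. Nr5a2 encodes LRH-1, a nuclear receptor that granulosa cells need for ovulation and that is also known from early embryos and stem cells. A transcript of this kind in an oocyte library can come from the oocyte or from somatic material that stayed with it, and the deposited counts hold no measure that assigns a read to either cell. The distribution over oocytes can be described: a transcript found at a similar level in every oocyte of a group, or one whose reads lie in a few of them.

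Levels are given as counts per 1000000 reads (CPM) of the summed libraries of a group, with an exact Poisson 95% interval that covers counting error only, and as the lowest, median and highest oocyte. The labels name no animal, embryo or culture for any oocyte, so each group counts as 1 sample and no test or p-value is given. Oocytes of a group may share a mother or a culture dish. A library held between 2170106 and 13692528 counted reads (median 6925374), and 3 reads in a summed group correspond to 0.0181 to 0.0207 CPM. The oocyte label was checked on 12 oocyte markers, of which 11, among them Gdf9, Bmp15 and the zona genes Zp1, Zp2 and Zp3, were above 1 CPM in at least 90% of oocytes of every group.

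The 9 transcripts fell into distinct patterns. Nr5a2 was above 1 CPM in every oocyte and Kitl in all but 1. By contrast Gja1 was above 1 CPM in 88 oocytes, Fshr in 89, Inhba in 32, Inhbb in 19, Fst in 12, Amh in 10 and Amhr2 in 3. A gene was called even in a group when it was above 1 CPM in at least 90% of the oocytes and the 3 highest oocytes held less than 50% of its summed CPM. It was called concentrated when its pooled level was at least 0.5 CPM and the 3 highest oocytes held 50% or more. Nr5a2 and Kitl were even in all 7 groups, and no other of the 9 was. The share of all genes that were even in every group is not given here, so counts of even genes in any list are descriptions only. Inhba, Fshr and Gja1 were each concentrated in 4 groups, and Inhbb and Fst in the 6 dpp and in vivo FGOs.

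**Figure D1:**
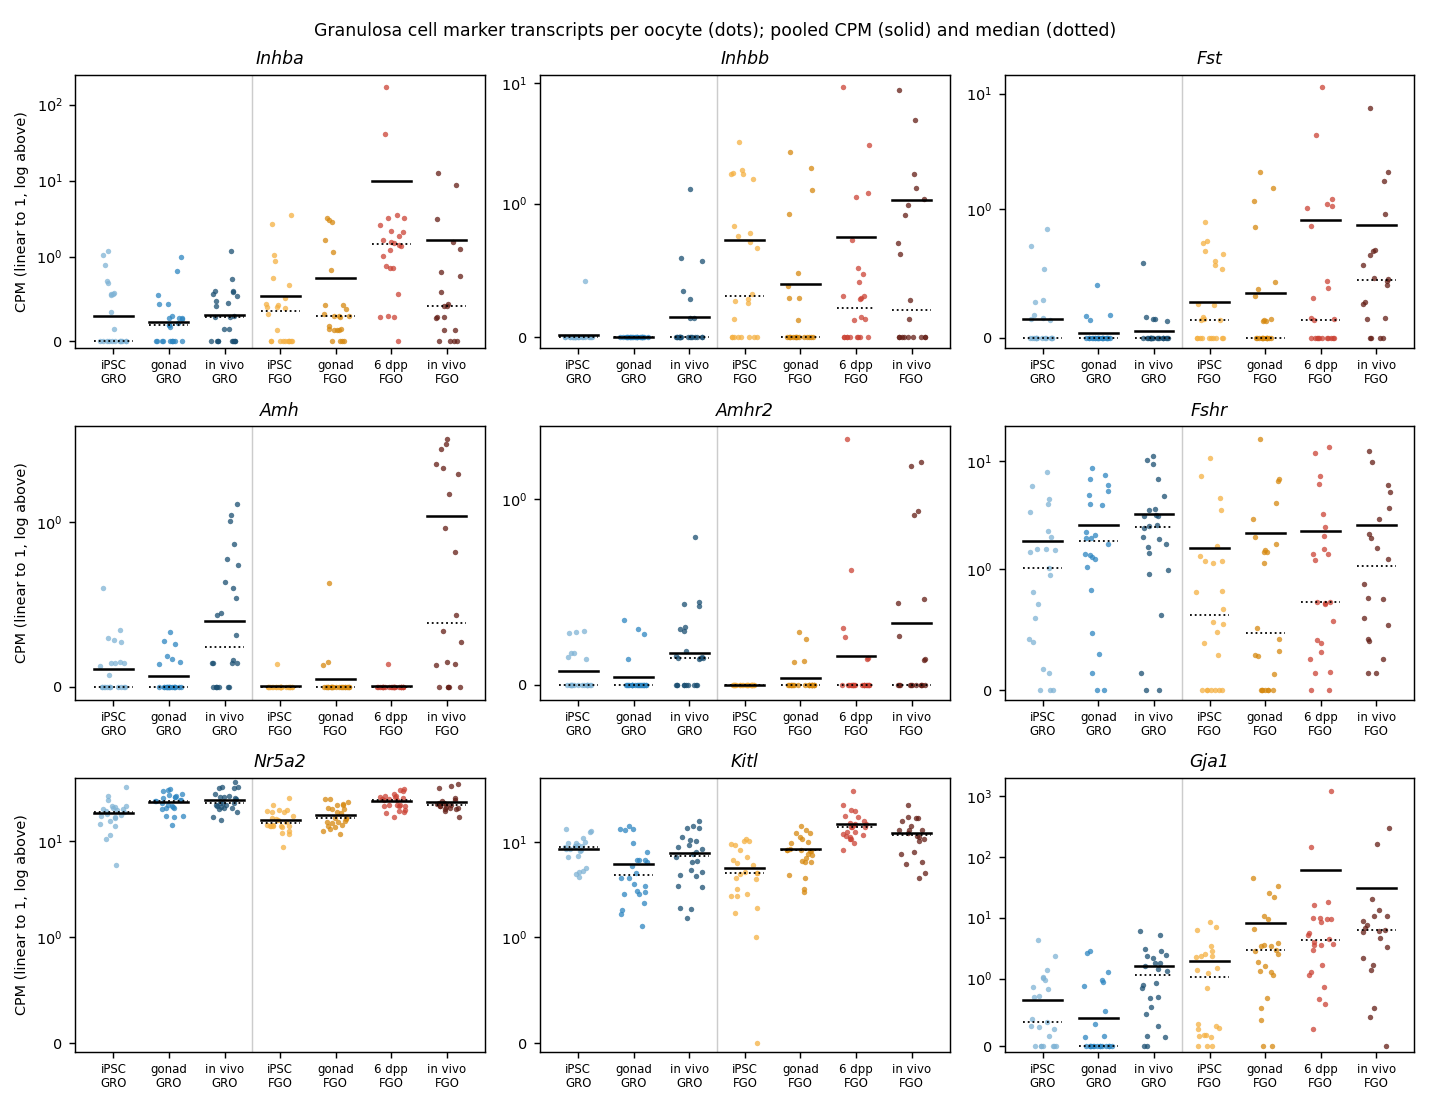
Each panel plots 1 of the 9 transcripts, in CPM on an axis that is linear to 1 and logarithmic above, for the 7 groups; dots are single oocytes, the solid line is the pooled CPM of the group and the dotted line its median oocyte. Nr5a2 forms tight clouds in every group, whereas a single 6 dpp FGO reaches 1208 CPM of Gja1 and 169 CPM of Inhba over medians of 4.26 and 1.47 CPM.

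For 7 of the 9 transcripts RefSeq (GRCm38.p6) promoter windows were at hand, and 3 are shown to place Nr5a2, one of the genes that were even everywhere, beside a pair that was low in GROs. Each is the 250 bases before the start of the gene on its own strand, 5′ to 3′, with every CG dinucleotide in capitals.
Inhbb (chr1:119422249-119422498, minus strand): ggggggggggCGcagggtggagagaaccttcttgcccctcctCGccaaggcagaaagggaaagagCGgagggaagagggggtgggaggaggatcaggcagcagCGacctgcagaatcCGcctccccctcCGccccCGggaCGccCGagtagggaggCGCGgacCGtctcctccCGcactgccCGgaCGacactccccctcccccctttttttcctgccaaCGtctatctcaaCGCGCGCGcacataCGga
Nr5a2 (chr1:136960449-136960698, minus strand): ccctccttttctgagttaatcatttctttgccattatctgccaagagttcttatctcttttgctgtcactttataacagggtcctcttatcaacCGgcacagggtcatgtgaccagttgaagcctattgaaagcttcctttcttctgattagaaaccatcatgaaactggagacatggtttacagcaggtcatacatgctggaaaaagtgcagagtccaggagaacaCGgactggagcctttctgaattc
Gja1 (chr10:56377050-56377299, plus strand): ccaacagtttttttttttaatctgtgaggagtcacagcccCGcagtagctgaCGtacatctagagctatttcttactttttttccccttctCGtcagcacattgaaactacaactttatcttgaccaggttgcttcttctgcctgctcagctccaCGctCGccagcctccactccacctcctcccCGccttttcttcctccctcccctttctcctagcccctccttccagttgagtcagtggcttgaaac
The Inhbb window held 21 CG dinucleotides at 68% GC, more than 83.7% of the 32851 promoter windows of this length. The Nr5a2 window shown had 2 at 43.2% GC, more than 18.8% of windows, while a second window of this gene had 6 at 49.6% GC. Gja1 had 6 at 50% GC, more than 49.6%, and the median window held 6. Kitl, the other gene that was even everywhere, had 23 at 69.2% GC, more than 86.7% of windows, but this window overlaps an annotated exon and most of it lies inside the gene span given for Kitl. Since LRH-1 binds AAGGTCA, these letters and their reverse complement TGACCTT were also searched in the promoter windows. They were found in 4.72% of all windows, and in 1 of the 7 matched genes: in Amhr2 the motif lies 231 bases before the start that RefSeq gives for this window, a position inside the whole gene span given with its values.
Amhr2 (chr15:102445125-102445154, plus strand, AAGGTCA in capitals): caccttcttccAAGGTCAgtaggggtagag
A match describes the letters in a window and does not show that a factor binds there.

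The nuclear receptor gene Nr5a2 (Entrez 26424, GRCm38.p6 chr1:136842562-136960448, minus strand) was above 1 CPM in every oocyte. Its pooled GRO level was 27.3 CPM in vivo (95% interval 26.5 to 28.1), 25.7 CPM for the gonad source and 19.6 CPM for the iPSC source, with single oocytes at 16.7 to 41.3, 14.7 to 34.9 and 5.61 to 37.3 CPM. The pooled FGO level was 25.9 CPM in vivo, 26.4 CPM at 6 dpp, 18.9 CPM for the gonad source and 16.8 CPM for the iPSC source, with medians of 24.2, 27.0, 17.4 and 15.4 CPM. The ranges of all groups overlapped, and the pooled levels of the 2 in vivo groups differed by -0.08 on the log2 scale. The 3 highest oocytes of a group held between 16.3% and 22.2% of the Nr5a2 signal.

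Per kilobase of counted exon, Nr5a2 had the highest level of the 9 genes in 5 of the 7 groups, at 4.21 to 6.83 RPKM. It was exceeded only by Gja1 in the 6 dpp FGOs (17.8 against 6.61 RPKM) and the in vivo FGOs (9.09 against 6.47 RPKM), the groups in which most Gja1 reads came from few oocytes. Kitl came next in the GROs (1.35 RPKM in vivo), followed by Fshr at 0.659 to 1.17 RPKM. Amhr2 was counted over only 428 exonic bases, 22.1% of its longest transcript, and Inhba over 1673 bases, 26.2% of its longest, so their place in this order depends on the transcript that was counted. Pooled levels close to each other in the order, such as Fshr at 0.573 RPKM and Gja1 at 0.567 RPKM in iPSC-derived FGOs, did not differ beyond counting error.

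Kitl (Entrez 17311, chr10:100015615-100100416, plus strand), the ligand of the KIT receptor, was likewise present in nearly all oocytes. In GROs 1255 reads gave a pooled level of 7.76 CPM in vivo, while the gonad source had 5.97 CPM (5.60 to 6.37) and the iPSC source 8.56 CPM (8.12 to 9.02), with medians of 7.28, 4.52 and 8.89 CPM. Among FGOs the 6 dpp group was highest at 15.7 CPM (15.1 to 16.3), followed by the in vivo group at 12.4 CPM (11.9 to 13.0), the gonad source at 8.52 CPM (8.08 to 8.98) and the iPSC source at 5.36 CPM (5.02 to 5.73). Single FGOs ranged from 8.23 to 34.9, 4.25 to 24.5, 2.98 to 14.8 and 0 to 10.9 CPM in that order. The value of 0 was that of iPSC-derived FGO 14, which had 6001153 reads.

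Between GROs and FGOs, Kitl went in opposite directions in the sources. Its pooled level in FGOs was 1.60-fold that of GROs in vivo (1.49 to 1.72) and 1.43-fold in gonad-derived oocytes (1.31 to 1.55), but 0.626-fold in iPSC-derived oocytes (0.575 to 0.682). The single oocytes overlapped in each source, although 10 of 24 iPSC-derived FGOs lay below every iPSC-derived GRO. Of the 6 dpp FGOs, 11 of 24 lay above every gonad-derived FGO and 12 of 24 gonad-derived FGOs lay below every 6 dpp FGO. The difference between sources rests on 1 sample for each group.

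Gja1 (Entrez 14609, chr10:56377300-56390419, plus strand), the connexin 43 gene, was low in GROs and reached the highest level of any of the 9 in FGOs. Its pooled GRO level was 1.61 CPM in vivo, 0.420 CPM for the gonad source and 0.687 CPM for the iPSC source, with medians of 1.14, 0 and 0.354 CPM and highest oocytes at 6.10, 2.88 and 4.23 CPM. The pooled FGO level was 60.0 CPM at 6 dpp (58.8 to 61.2), 30.6 CPM in vivo (29.7 to 31.5), 8.29 CPM for the gonad source (7.85 to 8.74) and 1.91 CPM for the iPSC source. The medians of these FGO groups, 4.26, 6.23, 2.90 and 1.04 CPM, were lower than the pooled levels and put the in vivo oocytes highest.

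A few oocytes set the pooled Gja1 level. In the 6 dpp FGOs oocyte 12 had 1208 CPM, oocyte 10 had 143 CPM and the next, oocyte 23, had 18.4 CPM. Among in vivo FGOs oocyte 19 had 294 CPM, oocyte 16 had 165 CPM and the next, oocyte 9, had 20.1 CPM. The gonad-derived FGOs had no such gap, with oocytes 18 and 13 at 44.9 and 33.4 CPM and oocyte 4, the fourth, at 22.2 CPM. Without oocytes 10 and 12 the 6 dpp FGOs came to 5.56 CPM, and without oocytes 16 and 19 the in vivo FGOs came to 6.16 CPM. The gonad-derived FGOs came to 5.06 CPM without their own pair of highest oocytes, 13 and 18.

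A higher level of Gja1 after growth was also present outside those oocytes. Of 20 in vivo FGOs, 10 lay above every in vivo GRO, and 12 of 24 gonad-derived FGOs lay above every gonad-derived GRO, against 3 of 24 in the iPSC-derived source. As plain ratios of pooled CPM, Gja1 was 19.0-fold higher in FGOs than in GROs in vivo (16.8 to 21.7), or 3.83-fold (3.33 to 4.43) without in vivo FGOs 16 and 19. It was 19.7-fold higher in gonad-derived (15.4 to 25.7) and 2.78-fold in iPSC-derived oocytes (2.23 to 3.47).

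The beta subunit genes of activin and inhibin were rare in GROs. Inhba (Entrez 16323, chr13:16004256-16031609, plus strand) had a pooled GRO level of 0.303 CPM in vivo, 0.229 CPM for the gonad source and 0.292 CPM for the iPSC source, and no GRO exceeded 1.20 CPM. The pooled FGO level was 9.91 CPM at 6 dpp (9.43 to 10.4), 1.64 CPM in vivo (1.44 to 1.86), 0.751 CPM for the gonad source (0.624 to 0.897) and 0.536 CPM for the iPSC source (0.430 to 0.659). The median FGO was at 1.47, 0.413, 0.295 and 0.356 CPM in that order. In the 6 dpp group 16 of 24 oocytes were above 1 CPM, against 5 of 24 gonad-derived, 3 of 24 iPSC-derived and 5 of 20 in vivo FGOs. Oocytes 12, 10 and 20 of the 6 dpp FGOs had 169, 41.5 and 3.49 CPM, and without oocytes 10 and 12 the pooled Inhba level of this group was 1.47 CPM. Without oocytes 16 and 19, which held 68.5% of the reads, the in vivo FGOs came to 0.579 CPM, below the 0.751 CPM of the gonad source, which was at 0.504 CPM without its oocytes 13 and 18. The gene overlaps the annotated genes Gm48444 and B230303A05Rik, and the use of strand in counting is not stated, so reads of these cannot be told apart from reads of Inhba where they overlap.

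Inhbb (Entrez 16324, chr1:119415463-119422248, minus strand), whose promoter is printed above, had no read in 24 gonad-derived GROs, 3 reads in 23 iPSC-derived GROs and 24 reads in 24 in vivo GROs. Its pooled FGO level was 1.07 CPM in vivo (155 reads), 0.747 CPM at 6 dpp (119 reads), 0.394 CPM for the gonad source (64 reads) and 0.728 CPM for the iPSC source (121 reads). Against a floor of 3 reads the gonad-derived FGOs were at least 20.6-fold higher than the GROs of that source, and the iPSC-derived FGOs were 39.9-fold higher (13.3 to 196), from 3 GRO reads that all lay in iPSC-derived GRO 8. In vivo the ratio was 7.21 (4.67 to 11.6), or 4.59 without in vivo FGO 16 and 4.89 without in vivo FGOs 16 and 19. On the other side, in vivo GRO 5 held 39.0% of the Inhbb signal of its group, so without it the ratio would be higher. Without oocytes 10 and 12 the 6 dpp level was 0.266 CPM. Inhbb was the only 1 of the 9 with a higher pooled level in iPSC-derived than in gonad-derived FGOs, at 1.85-fold (1.35 to 2.54). The 3 highest oocytes held 40.5% of its signal in the iPSC-derived FGOs, against 70.4% to 73.6% in the other FGO groups.

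Fst (Entrez 14313, chr13:114452262-114458989, minus strand), the activin antagonist, had 6 reads in gonad-derived, 8 in in vivo and 24 in iPSC-derived GROs. FGOs had 0.876 CPM in vivo, 0.916 CPM at 6 dpp, 0.345 CPM for the gonad source and 0.277 CPM for the iPSC source. Only 12 oocytes of all groups were above 1 CPM, and all of them were FGOs of gonad-derived, 6 dpp or in vivo origin. The highest Fst values, 11.4 CPM in 6 dpp FGO 12 and 7.55 CPM in in vivo FGO 16, belonged to oocytes already named for Gja1. FGOs exceeded GROs 17.7-fold in vivo (8.73 to 41.9), or 11.0-fold without in vivo FGO 16 and 9.37-fold without in vivo FGOs 16 and 19. The ratio was 9.03 in gonad-derived (3.90 to 25.6) and 1.90 in iPSC-derived oocytes (1.13 to 3.25). In vivo GRO 4 held 49.8% and gonad-derived GRO 19 held 46.2% of the Fst signal of their groups, so without them those ratios would be higher. Fst overlaps Gm47040 on the opposite strand, so its reads carry the same uncertainty.

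Amh (Entrez 11705, chr10:80805240-80807679, plus strand), the hormone of small growing follicles, had more reads in each in vivo group than in any cultured group. In vivo GROs had 65 reads, or 0.402 CPM, and in vivo FGOs had 159 reads, or 1.10 CPM (0.933 to 1.28). The 5 cultured groups held 1 to 18 reads each, at 0.109 and 0.0637 CPM in iPSC-derived and gonad-derived GROs and at 0.00602, 0.0431 and 0.00628 CPM in iPSC-derived, gonad-derived and 6 dpp FGOs. Of 44 in vivo oocytes, 32 had a read of Amh and 10 were above 1 CPM. Of 119 cultured oocytes, 23 had a read and 0 were above 1 CPM. These totals pool stages and sources, and the difference was smaller in GROs than in FGOs. Among GROs, 17 of 24 in vivo, 11 of 23 iPSC-derived and 7 of 24 gonad-derived oocytes had a read. Among FGOs these were 15 of 20 in vivo, 1 of 24 iPSC-derived, 3 of 24 gonad-derived and 1 of 24 6 dpp oocytes. In a group of 24 oocytes a count of 0 has an exact 95% upper bound of 14.2%, for counting error only, since the oocytes may share a dish.

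The in vivo FGOs with most Amh were oocytes 10, 13, 14, 9 and 16, at 3.67, 3.40, 3.13, 2.49 and 2.32 CPM, and oocyte 19, the highest for Gja1, had 0.822 CPM. The 3 highest held 46.5% of the Amh signal of in vivo FGOs. In vivo FGOs exceeded 6 dpp FGOs 175-fold, from a single read in the latter (interval 30.9 to 6947), and in vivo GROs exceeded gonad-derived GROs 6.31-fold (3.22 to 13.8). The gene upstream on the same strand, Sf3a2, ends 318 bases before Amh and lay between 45.8 CPM (in vivo FGOs) and 63.0 CPM (iPSC-derived GROs). Read-through from it was not tested.

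The receptor gene Amhr2 (Entrez 110542, chr15:102445002-102454640, plus strand) was above 1 CPM in the fewest oocytes. GROs had 28 reads in vivo, 7 for the gonad source and 12 for the iPSC source, and FGOs had 48 in vivo, 25 at 6 dpp, 6 for the gonad source and 0 for the iPSC source. Its highest oocytes were 6 dpp FGO 12 at 2.31 CPM and an in vivo FGO at 1.68 CPM. Of the 25 reads in 6 dpp FGOs, 60% were in oocyte 12.

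Fshr (Entrez 14309, chr17:88984952-89200675, minus strand), through which FSH acts on granulosa cells, had pooled levels between 1.58 and 3.23 CPM but varied widely between oocytes. GROs had 3.23 CPM in vivo, 2.58 CPM for the gonad source and 1.82 CPM for the iPSC source, with medians of 2.47, 1.82 and 1.04 CPM. FGOs had 2.55 CPM in vivo, 2.25 CPM at 6 dpp, 2.15 CPM for the gonad source and 1.58 CPM for the iPSC source, with medians of 1.07, 0.728, 0.469 and 0.618 CPM. The 3 highest oocytes held 35.3% to 44.2% of the signal in GROs and 54.2% to 61.7% in FGOs. The highest FGOs were oocyte 22 of the iPSC-derived group (10.7 CPM), oocyte 8 of the gonad-derived (15.9 CPM), oocyte 5 of the 6 dpp (13.5 CPM) and oocyte 13 of the in vivo group (12.2 CPM). None of these was the highest oocyte of its group for Gja1 or Inhba, although leaders for those genes followed closely: 6 dpp FGO 12 was second for Fshr (11.7 CPM), gonad-derived FGO 18 second (6.85 CPM) and in vivo FGO 16 the third (5.95 CPM). iPSC-derived FGO 22 was the third of its group for Gja1.

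Whether such concentration is usual at these depths was read from all genes of at least 0.5 CPM in the same group. By the definition above 2.88% of 12166 genes were concentrated in the 6 dpp FGOs, 2.35% of 12317 in the in vivo FGOs, 1.65% of 12204 in the gonad-derived FGOs, 1.22% of 12008 in the iPSC-derived FGOs and 1.12% of 12369 in the iPSC-derived GROs. Of the 9 transcripts, 5 of 7 that reached this level were concentrated in the 6 dpp FGOs and 5 of 8 in the in vivo FGOs, namely Inhba, Inhbb, Fst, Fshr and Gja1 in both. Some of them reached 0.5 CPM only through the oocytes that made them concentrated: without oocytes 10 and 12 the 6 dpp levels of Inhbb and Fst were 0.266 and 0.300 CPM, and without oocytes 16 and 19 the in vivo level of Fst was 0.463 CPM. The count was 3 of 5 in the gonad-derived FGOs (Inhba, Fshr, Gja1), 2 of 6 in the iPSC-derived FGOs (Inhba, Fshr) and 1 of 4 in the iPSC-derived GROs (Gja1). Among these, Inhba in iPSC-derived FGOs (0.536 CPM, 57.4% in the 3 highest oocytes) also reached 0.5 CPM only through such oocytes. The same held for Gja1 in iPSC-derived GROs, at 0.687 CPM with oocytes 19, 1 and 15 at 4.23, 2.39 and 1.37 CPM. Inhba in gonad-derived FGOs was at 0.504 CPM without oocytes 13 and 18. The count was 0 of 3 in the gonad-derived GROs, where 0.995% of 12258 genes were concentrated, and 0 of 4 in the in vivo GROs, where 0.927% of 12193 were. Those counts of 0 are no result about the members.

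Low counts scatter more, so genes were also set beside those within 2-fold of their level. For Gja1 in 6 dpp FGOs the 3 highest oocytes held 93.0%, where the median of 2918 such genes was 16.1%. In in vivo FGOs they held 84.1%, where the median of 3108 genes was 19.9%. For Inhba they held 88.0% in 6 dpp FGOs, against a median of 18.7%, and 77.1% in in vivo FGOs, against 28.8%. Others were nearer to their neighbours. At least as concentrated were 5.14% of such genes for Inhba in iPSC-derived FGOs, 6.49% for Inhba in gonad-derived FGOs, 7.45% for Gja1 in iPSC-derived GROs, and 5.31% for Inhbb and 4.29% for Fst in 6 dpp FGOs.

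**Figure D2:**
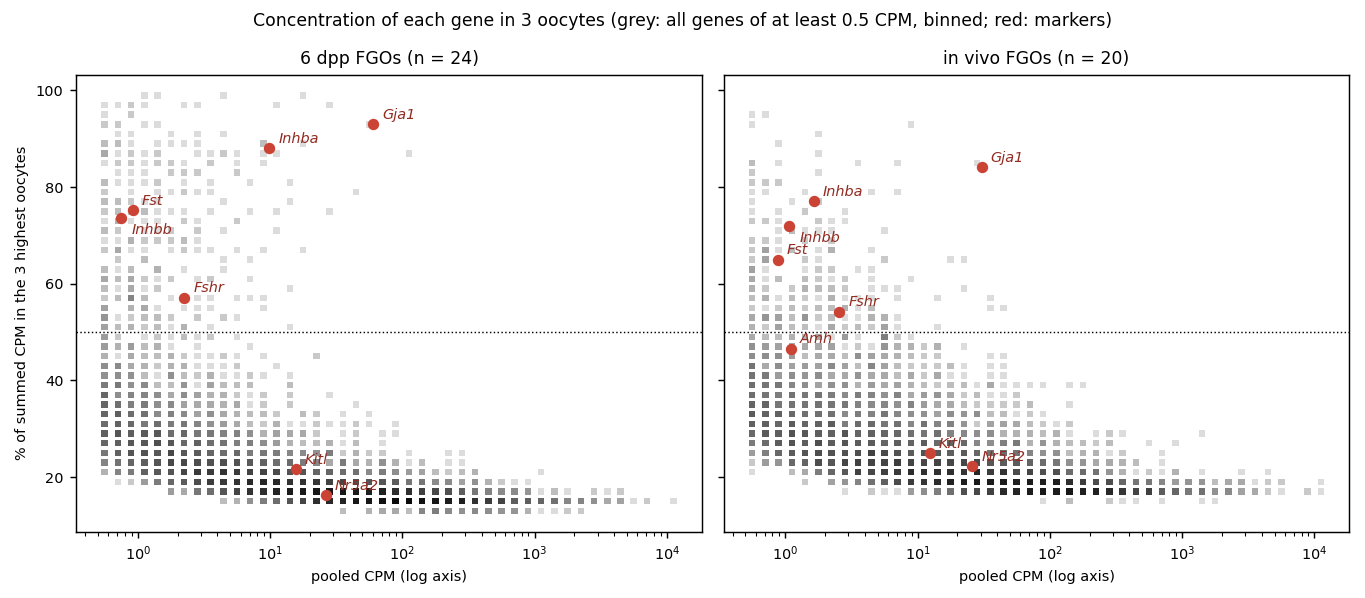
The share of summed CPM held by the 3 highest oocytes (vertical axis, %) is plotted against pooled CPM (logarithmic axis) in the 6 dpp and the in vivo FGOs. All genes of at least 0.5 CPM are grey bins, the markers are red points, and the dotted line is at 50%. Gja1 at 93.0% in the 6 dpp and 84.1% in the in vivo FGOs lies far above the genes of its level, while Nr5a2, at 16.3% and 22.2%, lies among them.

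The oocytes named above were singled out by their Gja1 and Inhba values, so the counts of genes they lead describe that choice and are read as no more. 6 dpp FGO 12 was the highest of its group for Inhba, Fst, Kitl and Gja1, 4 of the 7 members at 0.5 CPM or more, and it was the highest for 12.1% of all 12166 genes. In vivo FGO 16 was the highest for Inhba, Inhbb and Fst, 3 of 8, against 11.1% of all genes, and in vivo FGO 19 for Kitl and Gja1, 2 of 8, against 11.2%. 6 dpp FGO 10 led for Inhbb (1 of 7, against 3.21% of all genes). Gonad-derived FGO 13 led for Inhba (1 of 5, against 2.29%) and gonad-derived FGO 18 for Gja1 (1 of 5, against 6.59%). In vivo FGO 9 led for 0 of 8 (against 2.15%) and gonad-derived FGO 4 for 0 of 5 (against 4.61%). Kitl reached 34.9 CPM in 6 dpp FGO 12 and 24.7 CPM in oocyte 10, where the median was 14.6 CPM. Nr5a2 stood at rank 8 of 24 with 29.1 CPM in 6 dpp FGO 12, rank 16 with 23.8 CPM in 6 dpp FGO 10, rank 5 of 20 with 27.2 CPM in in vivo FGO 16 and rank 4 with 28.1 CPM in in vivo FGO 19. In depth, 6 dpp FGO 12 had 6484352 reads (rank 17 of 24), in vivo FGO 16 had 6887651 reads (rank 15 of 20) and in vivo FGO 19 had 8515230 reads (rank 2 of 20).

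Inhba and Gja1 were high in the same FGOs. The Pearson correlation of log2(CPM + 1) between Inhba and Gja1 was 0.91 over 24 6 dpp FGOs, 0.85 over 20 in vivo FGOs, 0.72 over 24 gonad-derived FGOs and 0.19 over 24 iPSC-derived FGOs. Without oocytes 10 and 12 it was 0.59 in the 6 dpp group, and without oocytes 16 and 19 it was 0.51 in the in vivo group. These are descriptions over oocytes that share a group and may share an animal or culture.

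**Figure D3:**
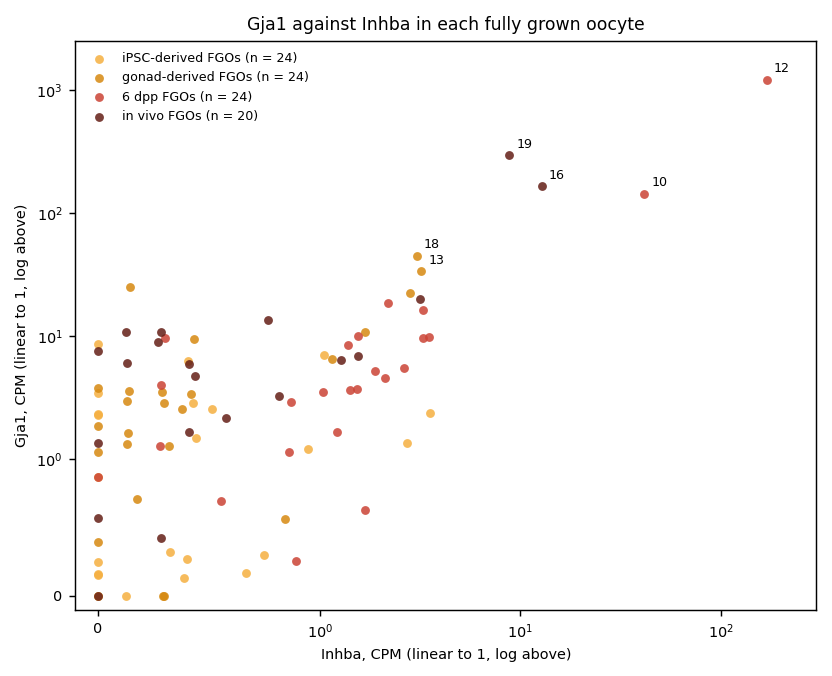
Each point is an FGO, with Inhba on the horizontal and Gja1 on the vertical axis, both in CPM on axes that are linear to 1 and logarithmic above, coloured by group. The far points are 6 dpp FGO 12 (169 and 1208 CPM) and 10 (41.5 and 143 CPM), and in vivo FGO 16 (12.8 and 165 CPM) and 19 (8.81 and 294 CPM).

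Other markers of granulosa and cumulus cells were read in the same libraries. Of a list of 19, 16 were in the table, and Inha, Foxl2 and Ptgs2 were not analysed here. The 16 were themselves of unlike kinds. Cyp19a1 (aromatase), Esr2 (estrogen receptor beta), Gata4 and Serpine2 were even in all 7 groups, with pooled levels of 8.87 to 77.2, 81.1 to 244, 10.9 to 44.7 and 187 to 306 CPM. The other 12 had a median under 5 CPM in every group, and their sum is the low-marker sum used below. That division was made after the values were seen.

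The low-marker sum was highest in the leading oocytes for Gja1 and Inhba of the 6 dpp FGOs, but not in those of every group. It was 261 CPM in 6 dpp FGO 12, 91.9 CPM in oocyte 10 and 34.2 CPM in oocyte 14, over a median of 8.25 CPM. In in vivo FGOs it was 66.8 CPM in oocyte 16, 18.8 CPM in oocyte 14 and 15.1 CPM in oocyte 19, over a median of 9.29 CPM, although oocyte 14 had only 8.86 CPM of Gja1. Over all 16 markers oocyte 16 stood at rank 4 of 20 (569 CPM) and oocyte 19 at rank 19 (469 CPM), where the median was 520.4 CPM, and 6 dpp FGOs 12 and 10 stood at ranks 1 and 2 (923 and 628 CPM). Gonad-derived FGOs 18 and 13 led their group at 15.9 and 12.2 CPM, over a median of 5.67 CPM. No iPSC-derived FGO exceeded 5.67 CPM, and oocyte 2, the highest of that group for Inhba, had 1.76 CPM, below the median of 2.72 CPM. The iPSC-derived FGOs with most Gja1, oocytes 9, 24 and 22, had 4.25, 5.22 and 5.01 CPM. GROs reached at most 9.65 CPM in the iPSC-derived, 8.59 CPM in the gonad-derived and 10.6 CPM in the in vivo group.

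In 6 dpp FGO 12 that sum included 138 CPM of Cyp11a1, which starts steroid synthesis from cholesterol, 63.5 CPM of Hsd17b1, an enzyme of estradiol synthesis, and 20.8 CPM of Nr5a1, the steroidogenic factor. Of the 12 genes summed, 9 were above 1 CPM in this oocyte. Has2, at 1.08 CPM, was below its group median of 1.75 CPM, Wt1 was at 0.154 CPM, and Ptx3 and Krt19 were at 0. Hsd17b1 was at 46.9 CPM in in vivo FGO 16. It was at 1.76 CPM, rank 14 of 20, in in vivo FGO 19.

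Markers of other somatic cells were high in part of the same oocytes. The sum of 10 theca and stroma genes was highest in gonad-derived FGO 18 (79.2 CPM) and in 6 dpp FGOs 10, 12 and 3 (49.9, 23.0 and 20.9 CPM), where the group medians were 1.11 and 2.29 CPM. In 6 dpp FGO 3 this was Dcn alone (20.9 CPM) and in 6 dpp FGO 12 mostly Cyp17a1 (19.0 CPM), while 6 of the 10 genes were above 1 CPM in 6 dpp FGO 10 and in gonad-derived FGO 18. It was at most 7.59 CPM in in vivo FGOs and 8.36 CPM in iPSC-derived FGOs. The sum of 5 general somatic genes was highest in 6 dpp FGOs 3, 12 and 10, at 447, 371 and 167 CPM over a median of 88.0 CPM. Anxa2, which was even in all 7 groups, made up 438 CPM of it in oocyte 3, 173 CPM in oocyte 12 and 83.8 CPM in oocyte 10. Vim, the intermediate filament gene of many somatic cells, was at 5.23 CPM in oocyte 3, 132 CPM in oocyte 12 and 49.8 CPM in oocyte 10. In all 4 FGO groups the oocyte with most Gja1 was also the highest for Vim: iPSC-derived FGO 9 had 17.1 CPM, gonad-derived FGO 18 had 28.6 CPM and in vivo FGO 19 had 27.4 CPM, over medians of 0, 0.155 and 0.613 CPM. The same held for Vim in gonad-derived GRO 19 (11.4 CPM) and in vivo GRO 5 (13.5 CPM), but not in iPSC-derived GROs. Among FGOs, Timp1 also peaked in the Gja1 leaders, and S100a6 in all of them but 6 dpp FGO 12, both from few reads. Lgals1 peaked only in 6 dpp FGO 12 of those leaders, and Anxa2 in none. As background, 6 dpp FGO 12, in vivo FGO 19 and gonad-derived FGO 18 were the highest for 12.1%, 11.2% and 6.59% of genes. In in vivo FGOs the general somatic sum was highest in oocyte 19, at 100.1 CPM over a median of 58.9 CPM. The sum of 3 blood markers was at most 1.44 CPM in any oocyte and 0 in every 6 dpp FGO. The sum of the 12 oocyte markers in 6 dpp FGO 12, 26768 CPM, stood at rank 13 of 24. The part of somatic material in the level of each of the 9 transcripts was not tested.

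Over all oocytes of the 7 groups, after subtracting the mean of each group, the Pearson correlation of log2(CPM + 1) with the low-marker sum was 0.67 for Gja1, 0.63 for Inhba, 0.62 for Fst, 0.59 for Inhbb, 0.57 for Amhr2, 0.30 for Fshr, 0.25 for Amh, 0.14 for Kitl and -0.06 for Nr5a2. Without 6 dpp FGO 12 and in vivo FGOs 16 and 19 (160 oocytes) it was 0.55, 0.43, 0.42, 0.51, 0.35, 0.22, 0.24, 0.07 and -0.10 in the same order. With the sum of all 16 markers, in which the 4 abundant genes dominate, it was 0.31 for Gja1, 0.28 for Inhba, 0.31 for Kitl and 0.27 for Nr5a2. The order of the genes thus depended on the list that was summed. Shared library composition enters all of these values.

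For each member above 1 CPM in at least 10 oocytes, the 5 genes with the most similar pattern were taken by the same group-centred correlation over all oocytes. For Gja1 they were Scd2 (0.83), Serpinh1 (0.81), Ifitm2 (0.79), Clic1 (0.79) and Rcn3 (0.78). Rcn3 and Fst (both 0.75) also stood near Inhba, with C430049B03Rik (0.75), Mgarp (0.72) and Gja1 (0.72). Fst itself was nearest to Rcn3, Inhba, C430049B03Rik, Ifitm2 and Mgarp, at 0.73 to 0.75, and Inhbb to Hsd17b1 (0.68), Fst, Rcn3, Chst8 and Inhba. When 4 oocytes, 6 dpp FGO 10 and 12 and in vivo FGO 16 and 19, were left out, Scd2 stayed at 0.75 with Gja1, while C430049B03Rik was at 0.24 with Inhba. Nr5a2 was nearest to Il17rd (0.58) and Zcchc14 (0.54) and Kitl to Nfe2l2 (0.53) and Tceanc (0.50). The nearest genes to Amh (Scd2) and to Fshr (Itm2c) both reached only 0.40, and Amhr2 was above 1 CPM in too few oocytes.

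The comparisons of the study were then read for the 9 genes. In vitro differentiation of primordial germ cells (IVP) is read from the contrast of iPSC-derived over gonad-derived oocytes, differentiation of oocytes in vitro (IVD) from gonad-derived over in vivo GROs or over 6 dpp FGOs, in vitro growth (IVG) from 6 dpp over in vivo FGOs, and growth from FGOs over GROs of 1 source. Values are log2 ratios of pooled CPM after adding 0.5 CPM, which understates the change of rare genes, and genes entered when above 1 CPM in at least 3 oocytes. A ratio of 2 or more in either direction, 4-fold, was counted, and the 8 comparisons share groups with each other.

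For growth in vivo, 8 of the 9 entered and 1 was 4-fold higher, Gja1 at 3.88, where 3.07% of 13148 genes were higher. Gja1 was at 2.80 without in vivo FGO 19 and at 1.66, no longer 4-fold, without in vivo FGOs 16 and 19. Inhba (1.42), Fst (1.32), Inhbb (1.28), Amh (0.82) and Kitl (0.65) were above 0, and Nr5a2 (-0.08) and Fshr (-0.29) below. Fst entered only through its FGOs, and Inhba and Inhbb, each above 1 CPM in 1 GRO and 5 FGOs, would not have entered without them, so their direction was set by the filter and no median is given. For growth of gonad-derived oocytes 7 entered, and again 1 was 4-fold higher, Gja1 at 3.26, against 0.88% of 13068 genes. Inhba, Inhbb and Fst had no gonad-derived GRO above 1 CPM and entered only through the FGOs. For iPSC-derived oocytes 6 entered and 0 were 4-fold apart, where 1.13% of 13115 genes were higher and 3.61% lower. Gja1 was at 1.02 and Kitl at -0.63 there, and Inhbb, which entered only through the FGOs, was at 1.24.

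In GROs 0 of the 6 that entered were 4-fold apart under IVP or IVD. Over 13422 genes 0.335% were 4-fold higher and 0.224% lower under IVP, and 0.633% higher and 0.0522% lower under IVD, so the count of 0 is no result about the 6. In the IVD contrast Gja1 was at -1.19, Kitl at -0.35, Fshr at -0.28, Inhba at -0.14 and Nr5a2 at -0.08. Amh was at -0.68, but it entered only through in vivo GROs (3 above 1 CPM, 0 in the other groups), which fixed its direction.

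In FGOs all 9 entered. Under IVP none was 4-fold apart, where 0.42% of 13582 genes were higher and 0.265% lower. Gja1 was at -1.87, Kitl at -0.62, Fshr at -0.35, Inhba at -0.27, Nr5a2 at -0.17 and Inhbb at 0.46, where the median over all genes was -0.08. By median oocyte Fshr (0.618 against 0.469 CPM), Inhba (0.356 against 0.295 CPM) and Fst (0.139 against 0 CPM) were instead higher in iPSC-derived FGOs. The medians of Gja1, Kitl, Nr5a2 and Inhbb went the same way as their ratios. Fst (-0.12), Amh and Amhr2 (both -0.10) rest on few reads, with 1 against 7 for Amh and 0 against 6 for Amhr2. Under IVD 2 of 9 were 4-fold lower, Inhba at -3.06 and Gja1 at -2.78, where 0.184% of 13582 genes were lower. Leaving out 6 dpp FGO 12 took Inhba to -1.55 and Gja1 to -0.43, so neither remained 4-fold apart, and leaving out oocytes 10 and 12 took Gja1 to 0.54. Under IVG 1 of 9 was 4-fold higher, Inhba at 2.28, where 0.0884% of 13582 genes were higher. It was at 0.77 without 6 dpp FGO 12 and at -0.12 without oocytes 10 and 12. Gja1 in this contrast moved from 0.96 to -1.39 without 6 dpp FGO 12, to -2.36, 4-fold lower, without oocytes 10 and 12, and to 2.05 without in vivo FGO 19. Amh, at -1.66, was the lowest of the 9 under IVG. It entered only through the in vivo FGOs (7 above 1 CPM, 0 in the other FGO groups), and the 6 dpp FGOs held a single read.

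**Figure D4:**
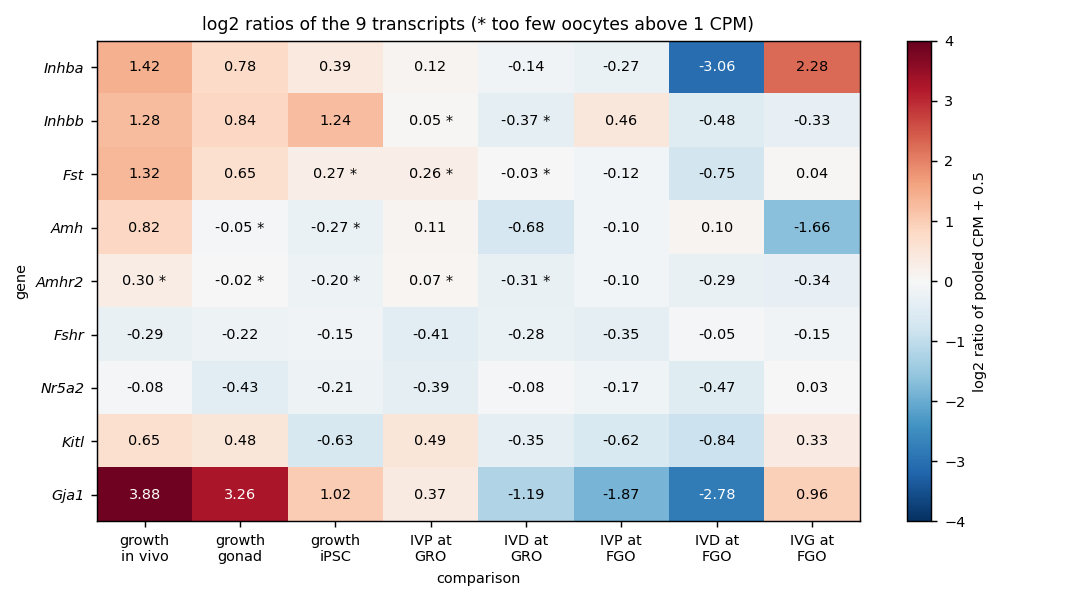
Rows are the 9 transcripts and columns the 8 comparisons, with the log2 ratio of pooled CPM printed and coloured in each cell; an asterisk marks a gene with too few oocytes above 1 CPM. Gja1 at 3.88 and 3.26 in growth and Inhba at -3.06 in IVD of FGOs stand out, while Fshr and Nr5a2 stay between -0.47 and 0.03.

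Receptors and partners of these signals were read from a list of 22. Of these, 21 were in the table, 15 were even in all 7 groups and 6 were not. Gdf9 and Bmp15, the oocyte factors that act on granulosa cells, were at 4974 to 11285 and 3188 to 5676 CPM. Gja4, the connexin 37 gene of the oocyte side of the gap junction, was at 1191 to 1648 CPM in the groups where Gja1 ranged from 0.420 to 60.0 CPM. Kit, the receptor of KIT ligand, was at 123 CPM in iPSC-derived FGOs, the group with the lowest Kitl, and at 375 CPM in in vivo GROs. The activin receptor gene Acvr2a was at 12.8 to 26.0 CPM and the follistatin-like Fstl3 at 10.6 to 22.3 CPM. Of 20 partners that entered each comparison, 1 was 4-fold apart in any: Gjc1, connexin 45, at -2.22 for growth in vivo, with 0.579 CPM in FGOs and 4.52 CPM in GROs, where 1.95% of 13148 genes were 4-fold lower.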

How the data were processed

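Single oocytes were sequenced by Smart-seq2, which primes polyadenylated RNA, in 75-base single reads. The authors aligned reads with STAR to GRCm38/mm10 and deposited counts of uniquely mapped reads over the exons of 1 transcript per gene. The counts hold no molecular identifiers, so intervals cover counting error only. The 9 genes and all lists were chosen with earlier results of these data known. From the counts, pooled and per-oocyte CPM, RPKM from the deposited exonic length, exact Poisson and binomial 95% intervals and log2 ratios (0.5 CPM added) were computed with Python 3.11.15, numpy 2.4.6, pandas 2.3.3 and scipy 1.17.1. All 9 genes are named, and other genes were named for 4-fold ratios, for the highest or lowest level of a list, or for likeness (5 genes each); single markers of the 4 oocytes that stood apart were chosen after their values were seen. Of 21950 genes, 21907 matched RefSeq. Alternatives were other added values, TMM (edgeR 4.0.16) and DESeq2 1.42.0 size factors for scaling only, means and medians of oocytes, no filter, and oocytes left out; those without 6 dpp FGO 10, and levels and ratios without in vivo FGO 16 or 19 alone or gonad-derived FGO 13 and 18, were added after seeing the data. The ratio formula was tested on simulated counts for the IVG contrast alone, with changes only in genes above 5 CPM. The simulation held no oocytes that stand apart, so it does not cover rarer genes or levels set by few oocytes. The replicate numbers only name oocytes.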

Additional observations from a re-analysis of the deposited data

How the results depend on the processing

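The number of the 9 genes at least 4-fold apart depended on the added value and on few oocytes. With 0.1 CPM added it went from 1 to 4 for growth in vivo (Inhba, Inhbb, Fst, Gja1), from 1 to 2 for growth of gonad-derived oocytes, from 0 to 1 for growth of iPSC-derived oocytes (Inhbb), from 0 to 1 for IVP in FGOs (Gja1) and from 1 to 2 for IVG (Inhba, Amh), and with 2 CPM added it was 0 for IVG. With medians of oocytes it was 0 for IVD and 0 for IVG in FGOs. Without 6 dpp FGO 12 it was 0 for both; without oocytes 10 and 12, or 3, 10 and 12, it was 0 for IVD and 1 for IVG, where the gene was Gja1, lower, in place of Inhba. Those settings reversed the 4-fold Gja1 value under IVD, to 0.54 and 0.57, and that of Inhba under IVG, to -0.12 and -0.12. Gja1 under IVG, below 4-fold at 0.96, also changed sign, to -2.36 and -2.39, and to -0.50 with medians. Without in vivo FGO 16 and 19 the count was 0 for growth in vivo and 2 for IVG. Leaving out each oocyte in turn gave 0 to 1 for IVP, 0 to 2 for IVD and 0 to 2 for IVG in FGOs, and changed no count elsewhere. TMM or DESeq2 scaling left all 72 ratios inside their counting interval. Leaving out the filter cannot change a ratio, only which genes are counted, and it changed no count. No paired analysis was possible because the numbers only name oocytes and no test was made. Depth limits Amh, Amhr2, Fst and Inhbb in the groups where they had few reads, such as the single Amh read of the 6 dpp FGOs.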
